A study of Mus musculus with 2 samples.

Results

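The interferon-stimulated genes measured here are 40 listed mouse genes, of which 32 are classed as targets of type I interferon and 8 as genes best known as targets of interferon-gamma. They were found as every non-control array probe whose RefSeq accession a table of gene symbols assigns to one of them. This gave 47 probes for 38 genes, out of 20660 named genes and 55681 non-control probes on the array. All 8 interferon-gamma genes and 30 of the 32 type I genes had a probe. No probe carried an accession that the table lists for the GTPase genes Mx1 and Mx2, which are not analysed here. Total RNA of mouse lung epithelial cells was hybridised to Agilent 1-colour arrays, with 1 array of Mob1DKO cells and another of wild-type (WT) cells. The mice of both genotypes are labelled C57BL/6 and 10 weeks of age. Mob1DKO is not spelled out in the labels and is read, as known for such mice, as a double knockout of Mob1a and Mob1b, whose proteins switch on LATS kinases in Hippo signalling. The alleles, the driver of any conditional deletion and the number of animals behind each array are not given in the sources used here. The comparison asks how gene expression in these cells differs between the genotypes.

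Type I interferons bind the IFNAR receptor, whose kinases phosphorylate STAT2 and other factors. STAT2 joins IRF9, and the complex binds a DNA element called the interferon-stimulated response element (ISRE). Interferon-gamma binds the IFNGR receptor and acts mainly through another DNA element, the gamma-activated site (GAS). Most of the genes below can answer to both kinds of interferon, so the classes overlap. In the lung, epithelial cells are the first target of respiratory viruses and carry receptors for both kinds as well as for interferon lambda.

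Levels are log2 values of the scanner software's processed signal over the 75th percentile of the array, and differences are Mob1DKO minus WT on the same log2 scale. The 75th percentile was 291 in Mob1DKO and 155 in WT, with no saturated spots. With 1 array per group there was no replicate and no test, so a gene is described by its size of difference and called only when it was at least 2-fold and well above background on the brighter array. Probes printed at 10 spots gave the technical SD of a single-spot difference, which was 0.48 below a mean level of -2, 0.25 between -2 and 0, 0.11 between 0 and 2 and 0.067 above 2. This error leaves out differences between animals and between preparations. Fewer cells of a type and less RNA per cell cannot be told apart in such bulk RNA. Mob1b was lower in Mob1DKO on both of its probes (-2.98 in Mob1DKO against -0.98 in WT on one, a difference of -2.70 on the other), while the Mob1a probe differed by 0.07. With limma's normexp background correction (offset 50), applied to median spot signals, Mob1b differed by -1.13 and Mob1a by -0.42. Where these probes lie relative to the deleted parts is not given in those sources. The X-inactivation RNA Xist differed by -2.29 and the Y-linked Ddx3y was at least 22.7-fold higher by its bound in Mob1DKO (-1.60 and 2.70 with the normexp correction), so sex and genotype cannot be told apart.

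One interferon-stimulated gene was called higher in Mob1DKO and one lower. Of the 37 members well above background on at least 1 array, Isg15 was 2.20-fold higher and Oas2 was 7.41-fold lower. Of all 15099 genes measured this way, 3.79% were called higher and 2.91% lower, so the members' counts of 1 and 1 lie near the background. In either direction 2 of 37 members were called, where 6.7% of all genes were. Of 42 measured member probes, 3 were called higher (both of Isg15 and a faint one of Irf1), where 5.81% of 33502 measured probes were, and 2 lower (Oas2 and one of Cmpk2), where 3.7% of probes were. In size, 24 of the 37 members had a difference above 0, against 53.3% of all genes. The members' median difference was 0.09, against 0.02 over all genes. The type I group had a median of 0.02 over 29 genes, with values from -2.89 to 1.14. The interferon-gamma group had a median of 0.36 over 8 genes, with values from 0.03 to 0.49, and none of its genes was called. The group medians thus differed by -0.34 (type I minus interferon-gamma). The interquartile range over all genes was -0.18 to 0.22.

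**Figure D1:**
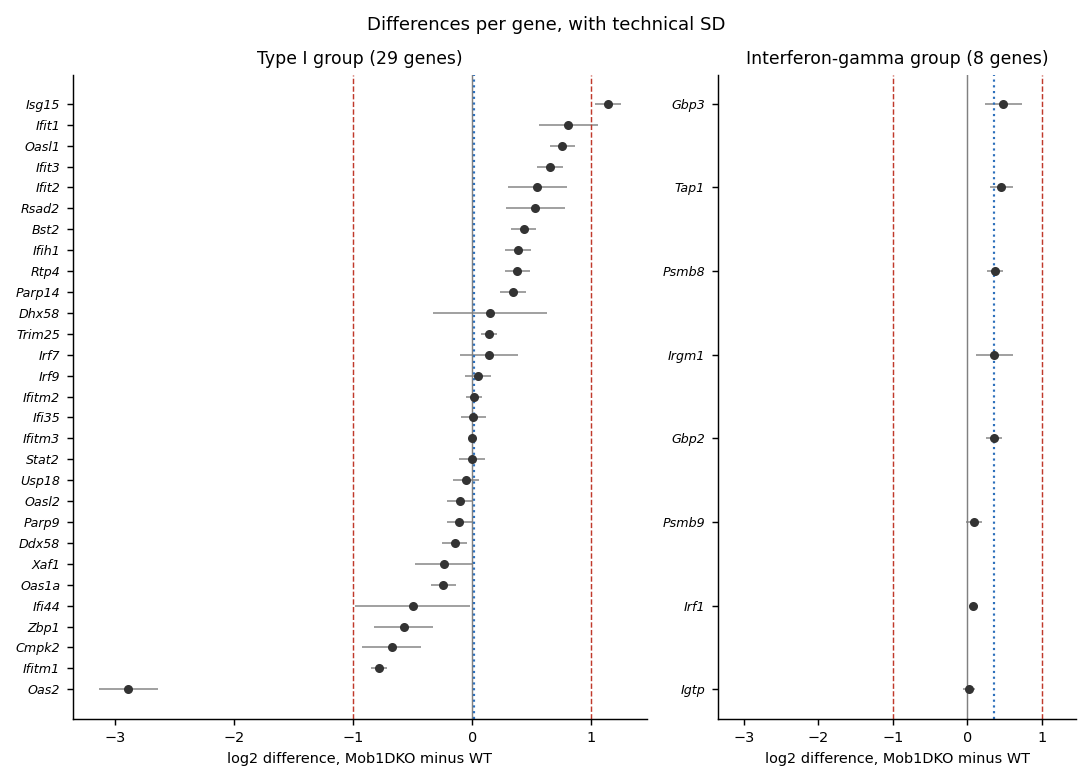
Log2 difference (Mob1DKO minus WT, x axis) of each measured gene of the type I group (left) and the interferon-gamma group (right), 1 probe a gene. Bars are the technical SD, dashed lines mark 2-fold and dotted lines the group medians of 0.02 and 0.36. Type I genes lie on both sides of 0, while the 8 interferon-gamma genes lie between 0.03 and 0.49.

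Isg15 encodes a ubiquitin-like protein that is joined to other proteins after interferon signalling. Its brighter probe (NM_015783) had a processed signal of 890 in Mob1DKO and 215 in WT, which is a log2 level of 1.61 in Mob1DKO and 0.47 in WT. The difference of 1.14 is larger than the technical SD of 0.11. A second, dimmer Isg15 probe stood at -1.996 in Mob1DKO and -3.05 in WT, a difference of 1.06. Both Isg15 probes were thus past 2-fold in the same direction. With the normexp correction Isg15 differed by 0.98 and was no longer called. The other 2 genes of the ISG15 system did not show this. Usp18, the protease that removes ISG15 and dampens receptor signalling, stood at 1.68 in Mob1DKO and 1.73 in WT. Trim25, a ubiquitin ligase that also modifies proteins with ISG15, stood at 3.68 in Mob1DKO and 3.54 in WT.

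The 250 bases before the start of transcription were searched for the ISRE letters (GAAA, any 2 bases and GAAA again) and the GAS letters TTCNNNGAA on both strands. Promoter sequences are from RefSeq, build GRCm38.p6, which had an entry for 31 of the 40 members, Oas2 not among them. They are shown, 5′ to 3′ in the direction of the gene and with the ISRE letters in capitals, for Isg15 in full and for 7 other members around their first match. Together they let the called gene be read beside type I genes that were higher (Ifit1, Rsad2, Bst2) or lower (Oas1a) in size and beside interferon-gamma genes (Gbp2, Gbp3, Irgm1). Not shown are the matches of Ifit3 (0.65), of the unmeasured Oas3 and of members with a difference near 0. The latter are Stat2 (-0.004), Ifitm2 (0.02) and Igtp (0.03).
Isg15, chr4:156200819-156201068, minus strand: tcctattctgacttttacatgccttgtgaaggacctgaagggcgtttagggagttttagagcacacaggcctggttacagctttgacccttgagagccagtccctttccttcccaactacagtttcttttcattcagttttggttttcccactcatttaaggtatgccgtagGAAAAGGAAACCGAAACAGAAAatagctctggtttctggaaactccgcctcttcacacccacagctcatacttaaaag
Ifit1, chr19:34640760-34640819, plus strand: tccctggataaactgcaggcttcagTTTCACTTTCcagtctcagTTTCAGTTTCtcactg
Rsad2, chr12:26456538-26456597, minus strand: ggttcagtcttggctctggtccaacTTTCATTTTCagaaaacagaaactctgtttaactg
Bst2, chr8:71537568-71537627, minus strand: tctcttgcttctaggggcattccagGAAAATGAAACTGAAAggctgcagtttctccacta
Oas1a, chr5:120907526-120907570, minus strand: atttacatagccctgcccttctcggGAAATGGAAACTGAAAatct
Gbp2, chr3:142620579-142620638, plus strand: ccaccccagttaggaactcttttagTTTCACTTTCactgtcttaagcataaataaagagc
Gbp3, chr3:142559974-142560033, plus strand: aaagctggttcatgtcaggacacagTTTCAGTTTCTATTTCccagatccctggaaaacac
Irgm1, chr11:48871421-48871475, minus strand: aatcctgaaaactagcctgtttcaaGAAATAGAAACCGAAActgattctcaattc
Isg15 held 3 matches that overlap one another, between 78 and 57 bases before the start, and no other member held more than 2. The ISRE letters occurred in 13 of the 31 members (41.9%), against 3.46% of 27025 genes in the table and 2.98% of its promoters. They were found in 9 of 23 type I genes and in 4 of 8 interferon-gamma genes. The GAS letters occurred in 6 of 31 members (19.4%), against 8.13% of all genes in the table, and in Bst2 they overlap an ISRE match. Among measured members the median difference was 0.40 for the 12 with the ISRE letters, with values from -0.24 (Oas1a) to 1.14 (Isg15). For the 18 members without the ISRE letters it was 0.07, with values from -0.78 (Ifitm1) to 0.76 (Oasl1). The ranges overlap, and a match to these letters is a description of the window and not a binding site.

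The sensors of foreign nucleic acid showed differences of either sign. Ddx58, which encodes the RNA sensor RIG-I, stood at 1.13 in Mob1DKO and 1.28 in WT on its brighter probe. Its second probe was above background in neither genotype. Ifih1, which encodes the long double-stranded RNA sensor MDA5, stood at 0.27 in Mob1DKO and -0.11 in WT, a difference of 0.39, and its second probe was too dim on both arrays. Dhx58, which encodes the related helicase LGP2, was faint on both arrays and differed by 0.15, within its technical SD of 0.48. Zbp1, a sensor of Z-form nucleic acid that triggers cell death, stood at -2.03 in Mob1DKO and -1.46 in WT, a difference of -0.57. Its second probe, for another accession, was above background in neither genotype.

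The transcription factors of the response lay close to equal on both arrays. Stat2 stood at 0.48 in Mob1DKO and 0.48 in WT. Irf9, the DNA-binding partner of STAT2, stood at 1.45 in Mob1DKO and 1.40 in WT. Neither difference was larger than the technical SD of 0.11. Irf7, which amplifies type I interferon production and is itself induced, differed by 0.14 with a technical SD of 0.25. Irf1, an early factor of the interferon-gamma response, stood at 4.56 in Mob1DKO and 4.47 in WT on its brighter probe. A second Irf1 probe, for another transcript, was well above background in Mob1DKO only, at -3.48, which lies under the lowest WT value that is well above background (-3.45), so no fold is given for it.

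Oas2 was the member that differed most. It encodes an oligoadenylate synthetase, one of the enzymes that sense double-stranded RNA and activate RNase L. Its single probe (NM_145227) had a processed signal of 76.3 in Mob1DKO and 301 in WT, a log2 level of -1.93 in Mob1DKO and 0.96 in WT. The difference of -2.89 is larger than the technical SD of 0.25, and no second probe checks it. Under the 13 other settings apart from no scaling it lay between -2.91 and -1.78, with the normexp correction at -1.78. The other members of the family did not share this difference. Oas1a had 2 probes, at 1.27 in Mob1DKO against 1.51 in WT and at -1.27 in Mob1DKO against -0.57 in WT, so that both were lower by less than 2-fold. Oas3 was well above background in neither genotype. Oasl1, which in mouse restrains translation of Irf7, stood at 1.41 in Mob1DKO and 0.65 in WT, a difference of 0.76. Oasl2 stood at 0.57 in Mob1DKO and 0.67 in WT.

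All 5 listed OAS genes lie on chromosome 5, which also carries Mob1b. The measured genes next to Oas2 in RefSeq order were looked at after its value was seen. Dtx1, on one side, stood at -1.41 in Mob1DKO and -2.32 in WT, a difference of 0.91. On the other side, beyond Oas3, Oas1e differed by -0.13, Oas1c by 0.60 and Oas1f by -0.35. None of these 4 neighbours was called. On the side of Dtx1, Cfap73 differed by 0.17, Ddx54 by 0.21 and Rita1 by -0.77, none of them called. Farther on the other side, beyond Oas1a, Rph3a was called higher. It stood at -1.90 in Mob1DKO and was not well above background in WT. The probe sequences are not in the files used here, so whether an OAS probe also binds RNA of a related gene, or of another allele, was not tested.

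**Figure D2:**
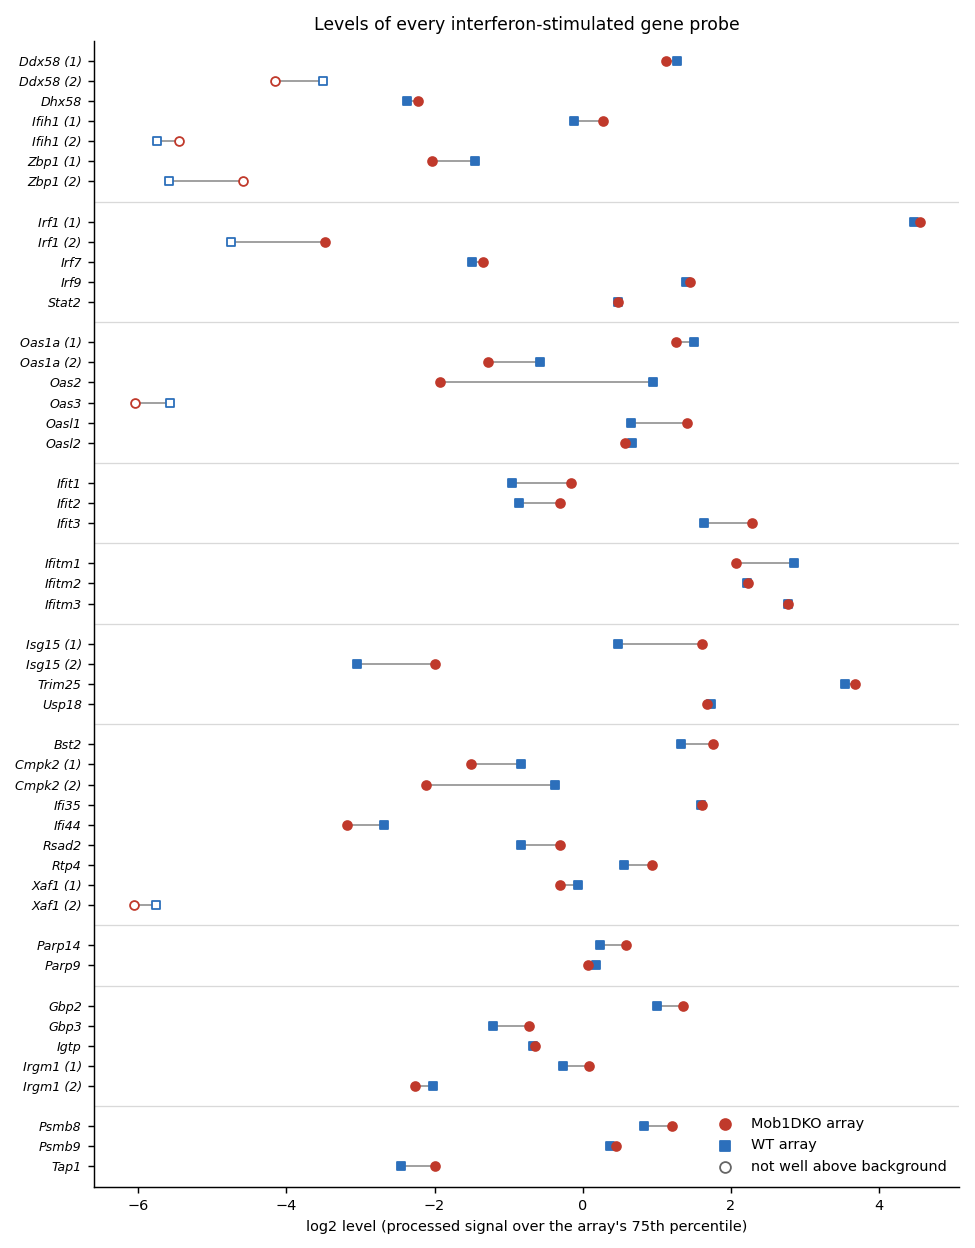
Log2 level (x axis, processed signal over the array's 75th percentile) of all 47 probes on the Mob1DKO array (red circles) and the WT array (blue squares), ordered by role from sensors at the top to antigen processing at the bottom. Open symbols are not well above background, and (1) and (2) mark the probes of a gene with 2. Oas2 and the second Cmpk2 probe lie far to the left in Mob1DKO, and both Isg15 probes to the right.

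The 3 IFIT genes, which encode proteins that bind foreign RNA ends and block translation, were all higher in Mob1DKO by less than 2-fold. Ifit1 stood at -0.15 in Mob1DKO and -0.96 in WT, a difference of 0.81. Ifit3 stood at 2.29 in Mob1DKO and 1.64 in WT, a difference of 0.65. Ifit2 stood at -0.31 in Mob1DKO and -0.86 in WT, a difference of 0.55. Each of these differences exceeded 2 technical SDs. The paralog Ifit3b, which is close to Ifit3, differed by 0.23. Under the 13 other settings that scale the arrays, the 3 genes stayed above the median of all genes, with Ifit2 at its lowest at 0.27 above it.

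The IFITM genes encode small membrane proteins that block the entry of enveloped viruses. Ifitm3, whose probe was printed at 10 spots, ranged from 2.71 to 2.84 over its spots on the Mob1DKO array and from 2.73 to 2.81 on the WT array. The spots overlapped almost wholly, and the mean difference was -0.00 with an SE of 0.016 over spots. Ifitm2 stood at 2.23 in Mob1DKO and 2.22 in WT. Ifitm1 stood apart from these, at 2.07 in Mob1DKO and 2.86 in WT. Its difference of -0.78, or 1.72-fold lower, exceeded the technical SD of 0.067 and did not reach 2-fold.

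Among the other antiviral effectors, Cmpk2 gave unequal values on its probes. It encodes a mitochondrial nucleotide kinase that lies beside Rsad2 in the genome. One Cmpk2 probe stood at -1.504 in Mob1DKO and -0.83 in WT, a difference of -0.68. The other stood at -2.12 in Mob1DKO and -0.37 in WT, a difference of -1.75, or 3.36-fold lower. Both probes were lower in Mob1DKO, and the gene was called lower when its probes were averaged. Rsad2, which encodes the antiviral enzyme viperin, went the other way, at -0.30 in Mob1DKO and -0.83 in WT, a difference of 0.53. Bst2, which encodes tetherin, a protein that holds budding virus at the cell surface, stood at 1.76 in Mob1DKO and 1.33 in WT. Rtp4, a chaperone of G protein-coupled receptors, differed by 0.38. Ifi35 differed by 0.01, Xaf1, a promoter of apoptosis, by -0.24 and the faint Ifi44 by -0.50, the last 2 within their own technical SDs or close to them. Of the PARP genes, which encode ADP-ribosyltransferases, Parp14 differed by 0.35 and Parp9 by -0.11.

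In the interferon-gamma group, the interferon-inducible GTPases, which attack the vacuoles of intracellular pathogens, had differences of 0.03 to 0.49. Gbp3 stood at -0.72 in Mob1DKO and -1.21 in WT, a difference of 0.49. Gbp2 stood at 1.35 in Mob1DKO and 0.999 in WT, a difference of 0.35. Irgm1 had a brighter probe at 0.09 in Mob1DKO and -0.27 in WT and a dimmer one at -2.26 in Mob1DKO and -2.02 in WT, so that its probes differed in sign. Igtp, measured at 10 spots, ranged from -0.80 to -0.55 over the spots of the Mob1DKO array and from -0.86 to -0.56 on the WT array, which overlap. Its difference was 0.03 with an SE of 0.040 over spots.

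The 3 antigen processing members were each higher in size, Psmb9 by less than its technical SD of 0.11. Other genes of this process, described below, differed in either direction. Psmb8, a catalytic subunit of the immunoproteasome, stood at 1.204 in Mob1DKO and 0.83 in WT. Psmb9, another such subunit, stood at 0.45 in Mob1DKO and 0.37 in WT. Tap1, a subunit of the transporter that carries peptides to MHC class I, was printed at 10 spots. They ranged from -2.32 to -1.74 on the Mob1DKO array and from -2.73 to -2.22 on the WT array, so that the spots overlapped only at the edges. The Tap1 difference was 0.46 with an SE of 0.078 over spots, yet it turned to -0.11 with the normexp correction, under which Igtp also turned to -0.07.

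**Figure D3:**
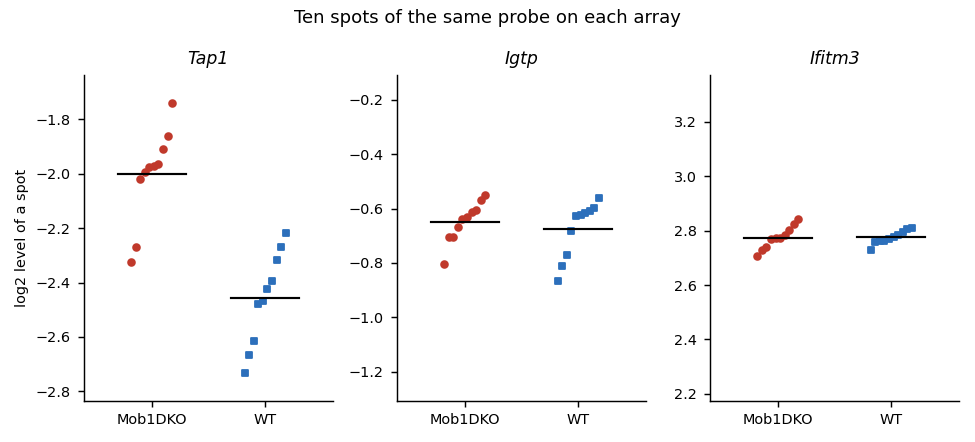
Log2 level (y axis) of each of the 10 spots of the Tap1, Igtp and Ifitm3 probes on the Mob1DKO array (red circles) and the WT array (blue squares), with lines at the means. All panels span the same height. Tap1 spots are higher on the Mob1DKO array, while those of Igtp and Ifitm3 overlap.

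Set against technical error, 14 measured members were higher and 5 lower by over 2 technical SDs, out of 37 well above background on both arrays. The 14 higher ones were 11 type I and 3 interferon-gamma genes. Within 2 technical SDs lay 13 type I and 5 interferon-gamma genes. The 5 lower ones were all in the type I group (Oas2, Ifitm1, Cmpk2, Zbp1 and Oas1a). Among 13866 genes measured on both arrays, 18.6% were higher and 15.7% lower by this measure. At 1.5-fold, 4 members were higher (Isg15, Ifit1, Oasl1 and Ifit3) and 3 lower (Oas2, Ifitm1 and Cmpk2), where 8.08% of all genes were higher and 6.75% lower. Of the 9 members with 2 probes, 4 had both well above background on both arrays, and the gap between their differences was 0.09 for Isg15, 0.46 for Oas1a, 0.61 for Irgm1 and 1.07 for Cmpk2. Over 3406 such genes the median gap was 0.24 and the 90th percentile 0.75.

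**Figure D4:**
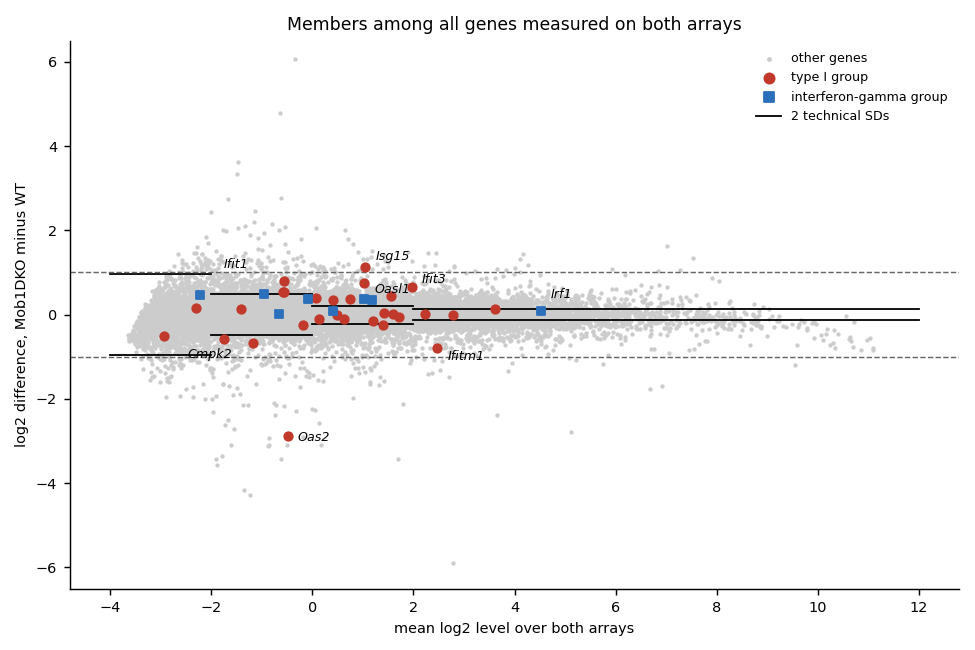
Log2 difference (Mob1DKO minus WT, y axis) against mean log2 level over both arrays (x axis) for every gene well above background on both arrays. Type I genes are red circles, interferon-gamma genes blue squares and other genes grey, black lines mark 2 technical SDs and dashed lines 2-fold. Oas2 lies at -2.89 and Isg15 at 1.14, and all other members lie within 2-fold.

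The rest of the pathway was described from lists of other genes. Of 9 receptor and kinase genes, none was called and their differences ran from -0.18 (Jak1) to 0.19 (Tyk2), with a median of 0.10. The type I receptor genes Ifnar1 and Ifnar2 differed by 0.12 and -0.08. Dimmer Ifnar1 probes differed by -0.35 and 0.47, so that the probes of this gene differed in sign. The interferon-gamma receptor genes Ifngr1 and Ifngr2 differed by -0.07 and 0.06, and the interferon lambda receptor gene Ifnlr1 by 0.17. Of 10 measured genes of the sensing pathway, the endosomal RNA receptor Tlr7 was called lower, at -1.10 in Mob1DKO and 0.61 in WT. Its second probe was well above background in neither genotype. Sex, which differs between the arrays by Xist and Ddx3y, cannot be told apart from genotype for Tlr7 either. All 5 inhibitors of the pathway had differences above 0 without being called, among them Socs1 (0.48) and Socs3 (0.43), which block JAK kinases. Among all genes measured, 3.79% were called higher, 2.91% were called lower and 53.3% had a difference above 0.

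The genes of the interferons themselves were faint. Ifnb1 and Ifng were well above background in neither genotype, and 12 of 21 listed interferon genes were measured. All 12 had a difference above 0, where 53.3% of all genes did, and their median was 0.53. Ifna16 was called higher, at least 1.26-fold by its bound, where 3.79% of all genes were called higher. With the normexp correction Ifna16 turned to -0.19 and was not called. The median of the 12 interferon genes was then 0.00, and 6 of 12 lay above 0. Of these 12 genes, 9 are interferon alpha genes whose sequences are close to one another, and whether their probes bind RNA of several of them was not tested.

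Of 56 measured interferon-stimulated genes outside the 40, 3 were called higher and 1 lower, and the median was -0.03. Over all genes 3.79% were called higher and 2.91% lower. With the normexp correction 2 of the 56 were called higher and 0 lower, where 99 and 173 of all 15099 genes were. The type I targets among the 56 had a median of -0.12 over 31 genes. The IFIT relative Ifit1bl1 was called higher, at least 2.52-fold by its bound, while with the normexp correction it differed by 0.33 and was not called. The interferon-gamma targets had a median of 0.06 over 25 genes, below the 0.36 of the 8 members. Of the 25, 15 lay above 0 and 10 below. Gbp6, another guanylate-binding GTPase, stood at 1.73 in Mob1DKO and 0.65 in WT, a difference of 1.08, or 1.12 with the normexp correction. Gbp4 stood at -0.42 in Mob1DKO and was not well above background in WT, which makes it at least 8.17-fold higher by its bound, while with the normexp correction its difference of 1.52 lay below that bound. Tgtp1, a GTPase of the same response, stood at -3.58 in Mob1DKO and -1.65 in WT, a difference of -1.93, which was -0.78 and no longer called with the normexp correction. The probes of its near-identical neighbour Tgtp2 were unequal. The brighter differed by 0.04, and the other stood at -5.40 in Mob1DKO, not well above background, and -1.62 in WT. Irgm2 was lower by less than 2-fold, with a difference of -0.77, or -0.75 with the normexp correction. The MHC class I genes H2-K1, H2-D1, H2-Q7 and H2-T23 differed by 0.18, 0.60, 0.54 and 0.35, and B2m by -0.11. Of other antigen processing genes, Tap2 differed by 0.32. Tapbp, Psmb10, Psme1 and Psme2 differed by -0.32, -0.23, -0.20 and -0.07. The inflammatory chemokine Cxcl10 differed by 0.05. Cxcl9 differed by -0.60 on its brighter probe, or -0.57 with the normexp correction.

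**Figure D5:**
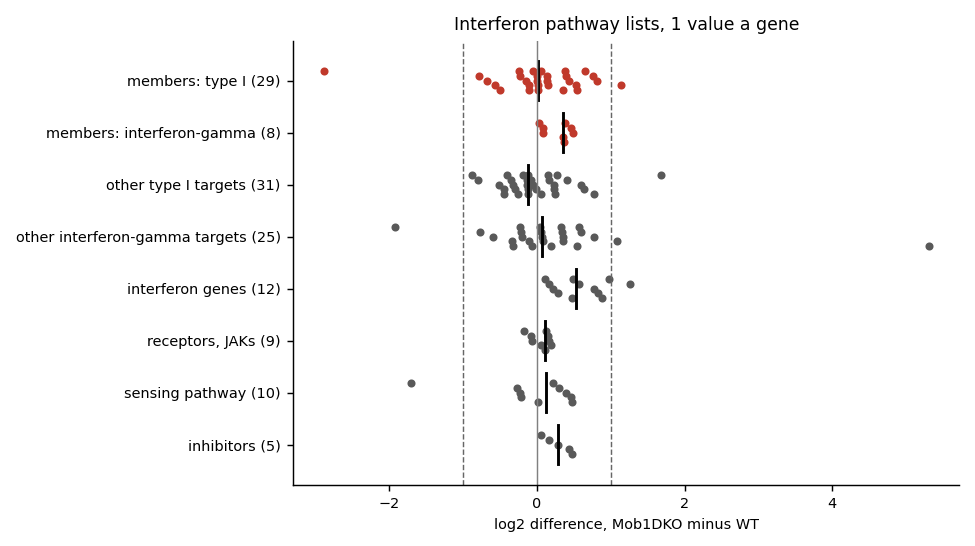
Log2 difference (Mob1DKO minus WT, x axis) of each measured gene in the 2 member groups (red) and in 6 other lists of the interferon pathway (grey), with the number of genes in brackets and lines at the medians. Dashed lines mark 2-fold. Gbp4, at the far right, was not well above background in WT.

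Markers of cell types were read beside these values. All 12 epithelial markers were well above background on both arrays, with none called and differences from -0.84 (Scgb1a1) to 0.65 (Foxj1). Their summed scaled signal was 5332 in Mob1DKO and 8072 in WT, a ratio of 0.66, where the ratio over all genes was 0.90. Most of this sum came from Sftpc and Scgb1a1, which differed by -0.78 and -0.84. Epcam differed by 0.18, Cdh1 by 0.10, Krt19 by 0.01 and Nkx2-1 by -0.01. Of the 12 epithelial markers, 5 lay above 0 and 7 below. Of 13 leukocyte markers, 8 were measured, and 3 of them were called higher from faint signals not well above background in WT (Cd79a, S100a8 and S100a9). Over all genes 3.79% were called higher. The 5 other measured markers (Cd3e, Nkg7, Itgam, Csf1r and Lyz2) were well above background on both arrays. Their differences ran from -0.38 (Nkg7) to -0.01 (Csf1r), with Cd3e at -0.13. No fold is given for S100a8 (-3.78 in Mob1DKO) and S100a9 (-4.09 in Mob1DKO), which lie under the lowest WT value well above background (-3.45). With the normexp correction these 3 genes differed by 0.20 (Cd79a), -0.39 (S100a8) and -0.53 (S100a9), and no leukocyte marker was called. The summed scaled signal of the 8 markers was 492 in Mob1DKO and 532 in WT, nearly all of it from Itgam and from Lyz2, which alveolar type 2 cells also express. The other Itgam probes were far dimmer, at -0.10 and -2.70 in Mob1DKO, with differences of 0.36 and 1.15 against -0.05 on the probe used. The defining marker Ptprc was well above background in neither genotype. The 7 markers of plasmacytoid dendritic cells, the main blood source of type I interferon, summed to 450 in Mob1DKO and 498 in WT, most of it from 1 Siglech probe, which differed by -0.14, while a second Siglech probe was well above background in neither genotype. This list also holds the member Bst2, and its 1 called gene was Klk1, with a difference of -1.45, or -0.76 and not called with the normexp correction. The summed signal of the 4 measured endothelial markers was 31.6 in Mob1DKO and 44.5 in WT. Most of it came from 1 Kdr probe, which differed by -0.60, while the Kdr probe at 10 spots differed by 0.05. Pecam1 differed by 0.12, Egfl7 by 0.53 and Esam by -0.15. Cdh5, Tek, Cldn5 and Emcn were well above background in neither genotype. The sum of 9 mesenchymal markers was 143 in Mob1DKO and 157 in WT. The median difference of these markers was -0.25, with 4 above 0 and 5 below, down to -0.97 (Acta2). Lum among them was called higher at a difference of 1.22, or at least 2.22-fold by its bound. It was not well above background in WT, and with the normexp correction it differed by 0.06 and was not called. As ratios of Mob1DKO to WT, the sums were 0.92 for leukocyte, 0.90 for plasmacytoid dendritic, 0.71 for endothelial and 0.91 for mesenchymal markers. The part of these cells in the differences above was not tested.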

How the data were processed

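Total RNA of lung epithelial cells was labelled with Cy3 after amplification and put on Agilent arrays, per the labels' protocols, with 1 array for Mob1DKO and 1 for WT. The deposited scanner files hold intensity values on a linear scale from Feature Extraction 10.7.1.1 on a grid of build mm9, per the file headers, against 9.5.1.1 per the submitters' processing notes. The processed signal is background-subtracted and detrended within each array, per the statistics in the file headers. The 75th percentile differs between arrays, so it is not on a common scale. The authors' deposited value table holds intensity values with a median of 27.3 in both columns. Quantile-normalizing the processed signals gave its values to within 0.1% for 99.5% (Mob1DKO) and 99.2% (WT) of probes. Each column was linear, uncentred and ran in the direction of its own array (r = 0.9998 and 0.9995 across probes).

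Spots of a probe were averaged, control spots left out, and log2 values taken minus the array's 75th percentile. Probes were named only through RefSeq accessions, in a table on assembly GRCm38.p6, which named 27235 of 55681 probes. The value of a gene is that of its brightest probe of those well above background in either genotype. The lowest value well above background was -4.10 in Mob1DKO and -3.45 in WT, and a fold against a dimmer value is given as a bound. The 8 spike-in transcripts above background were brighter in WT, by a median of 2.50-fold, while the 75th percentile was 1.88-fold higher on the Mob1DKO array, so the values say nothing of RNA per cell. No test was run, because each genotype has a single array. Alternatives covered background correction (limma 3.58.1), scaling, probe and spot rules, filters and the threshold. Every member may be named. Of the other lists, named genes are those called, receptors and the brightest, and any beyond these were chosen after their values were seen. The members and lists were chosen with earlier results of these data known. One gene of the pathway lists is not reported here.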

Additional observations from a re-analysis of the deposited data

How the results depend on the processing

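Oas2 was called lower under all 15 other settings. Isg15 was called higher under all but the normexp correction, which left 0 members higher and narrowed the gap between the group medians to -0.15. That correction was run on the median spot signal, a choice made after seeing the files, which hold no mean spot signal. With no scaling between arrays the median of all genes was 0.93, the type I median 0.93, the interferon-gamma median 1.27 and 18 members were higher. Scaling on 11 housekeeping genes moved the median of all genes to 0.19 and the group medians to 0.19 and 0.53. The share of calls that were higher was 68.5% with housekeeping genes and 97.2% with no scaling, against 56.6% in the main setting. It was 36.4% with the normexp correction, 39.9% with no filter on dim probes, 43.2% with bounds and 46.8% with probes measured on both arrays. Averaging probes, or taking their median, made 2 members lower (Oas2 and Cmpk2), and a threshold of 1.5-fold made 4 higher and 3 lower. Relative to all genes, the interferon-gamma median stayed between 0.26 and 0.43 under every setting, and the type I median between -0.02 and 0.11. Counts over all genes were 572 higher and 439 lower in the main setting. They fell to 99 and 173 with the normexp correction and to 291 and 383 with one-array genes at their bounds. With probes measured on both arrays they were 174 and 198, over 13869 genes. With no filter on dim probes they were 801 and 1208, but this adds genes near background. Among the 15099 genes of the main setting, 566 were then higher and 439 lower. Counts were 759 and 349 with housekeeping genes, 6149 and 174 with no scaling, and 1220 and 1019 at 1.5-fold. With the normexp correction the uncalled differences of Dhx58, Ifitm3, Igtp, Irf7, Oasl2, Parp9, Stat2 and Tap1 changed sign. Signal near background limits the faint members (Dhx58, Ifi44, Tap1). No paired analysis was possible because each group holds 1 array, and leaving out a replicate could not be run for the same reason.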
